A study of Ovis aries with 20 samples.

Results

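Genes of fatty acid transport, storage and oxidation were examined in the hearts of newborn lambs. The group holds 6 genes, CPT1A, CPT1B, SLC25A20, FABP4, PLIN5 and LIPA, of 864 genes that could be named on the array, and 9 of its 15008 probes. Members were all probes that the scanner files name for one of these genes, and the probe with the highest mean signal over the 20 arrays led each gene. RNA was profiled in the septum and the left ventricle (LV) of 10 singleton lambs: 5 whose mothers were infused with cortisol, the main adrenal glucocorticoid of sheep, at 1 mg/kg per day (cortisol lambs) and 5 whose mothers received vehicle (control lambs). The infusion, of cortisol or of vehicle, went to the ewe from about day 115 of gestation until she gave birth. The groups were septum cortisol, septum control, LV cortisol and LV control, with 5 arrays each, and the sample titles mark all 20 with the word telemetry. Hearts were collected 10 to 480 min after birth. The labels give only this range, so lambs of 1 group may differ in time after birth. No fetal or older hearts were analysed here, and no sample gives the state before birth.

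Long-chain fatty acids enter mitochondria through the carnitine shuttle. Carnitine palmitoyltransferase 1 on the outer membrane joins the acyl group to carnitine, and the carrier SLC25A20 takes acylcarnitine across the inner membrane in exchange for carnitine. CPT1A is the form of liver and many other tissues, is the less sensitive form to the inhibitor malonyl-CoA, and in the rat is more abundant in the fetal and newborn heart than in the adult heart. CPT1B is the form of muscle and adult heart. PLIN5 coats lipid droplets in oxidative tissues and regulates the release of fatty acids next to mitochondria, LIPA is the lysosomal acid lipase that cleaves cholesteryl esters and triglycerides, and FABP4 is the fatty acid-binding protein of adipocytes, macrophages and capillary endothelium. Before birth the heart burns mainly lactate and glucose, and after birth, with milk fat and oxygen, it turns to fatty acids.

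The array measured each gene with a 60-base probe, shown here because every value below is the signal of that sequence and because CPT1A and CPT1B are related genes. Letters are those of the scanner files, 5′ to 3′. Capitals mark bases that a second probe of the same gene also holds, genes with a single probe are all in lower case, and the first 30 bases are shown for CPT1A, CPT1B and FABP4.
CPT1A: cCCAATTCCAGAAAGTAAATCTCTTAGCAC
CPT1B: agacatcgccaatcttttccAAGTTTCTAA
SLC25A20: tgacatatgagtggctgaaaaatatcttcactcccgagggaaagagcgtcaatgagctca
PLIN5: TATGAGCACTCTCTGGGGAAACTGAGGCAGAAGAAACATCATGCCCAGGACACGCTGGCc
LIPA: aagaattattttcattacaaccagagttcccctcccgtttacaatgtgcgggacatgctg
FABP4: gtcaagcaacaccctctcagggacctaaga
The leading CPT1A and CPT1B probes had no more than 6 bases in a row in common, and their best ungapped alignment matched 21 bases. The 2 CPT1A probes shared 59 of 60 bases and the 2 PLIN5 probes also 59, so a second probe of these genes is not a separate region of the transcript. The 2 CPT1B probes shared 40. PLIN5 carried the older name LSDP5 in the files.

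Values are log2 signal minus the array's own 75th percentile, so 0 means a signal equal to that percentile. A spot is well above background if the scanner software marked it so. CPT1A, CPT1B, SLC25A20, PLIN5 and LIPA were well above background on 20 of 20 arrays. FABP4 was so on 10 of 20, with 2 of 5 in septum cortisol, 2 of 5 in septum control, 3 of 5 in LV cortisol and 3 of 5 in LV control. Probe signals also depend on sequence, so no gene's level is set against another's.

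CPT1A was lower in the septum than in the LV of the same lamb in 10 of 10 lambs and varied widely between lambs. In septum cortisol the 5 lambs had 0.01, 0.04, -0.13, 1.03 and -0.71, and in septum control 1.42, -0.66, 0.53, 0.91 and -0.61. In LV cortisol the same lambs, in the same order, had 0.92, 1.40, 1.37, 2.31 and -0.27, and in LV control 2.41, 0.53, 1.44, 2.96 and 0.35. The same 3 lambs, control 1, control 4 and cortisol 4, were the highest in both regions, and cortisol 5 was the lowest in both. The ranges of septum and LV overlapped across lambs, although in no lamb was the septum the higher one. Means were 0.05 ± 0.63 in septum cortisol, 0.32 ± 0.93 in septum control, 1.14 ± 0.94 in LV cortisol and 1.54 ± 1.14 in LV control (SD, n = 5 lambs each). Neighbours in that order differed by less than the larger of their SDs.

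**Figure D1:**
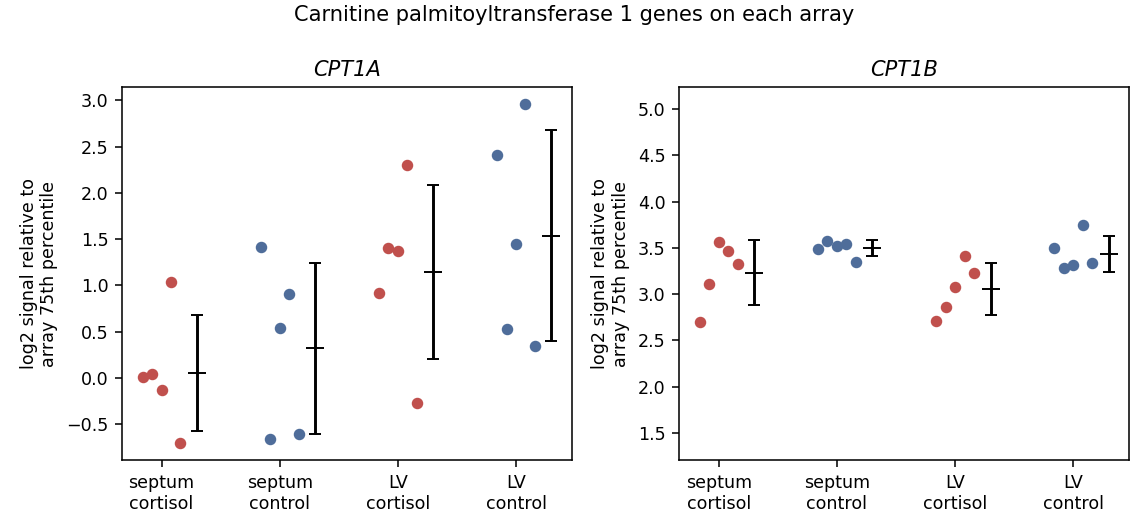
Signal of CPT1A and CPT1B on each array, in log2 units relative to the array's 75th percentile, by region and treatment; points are lambs and bars are mean ± SD (n = 5), and both panels span the same number of log2 units. CPT1A ranged from -0.71 to 2.96 and CPT1B from 2.69 to 3.75.

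The difference between septum and LV of CPT1A within a lamb was -1.16 ± 0.43 on the log2 scale (SD, n = 10 lambs), so the septum had 0.448 times the LV signal. It ran from -2.05 to -0.44, with a mean of -1.10 ± 0.43 in the 5 cortisol lambs and -1.22 ± 0.48 in the 5 control lambs. In the limma model that ignores which arrays share a lamb, it did not pass (SE 0.39, adjusted p = 0.177). With lamb as a block, it passed at -1.16 ± 0.13 (SE; 95% interval -1.45 to -0.87; adjusted p = 0.00066), and it did so too in control lambs alone (adjusted p = 0.0068). Cortisol lambs alone passed as well (adjusted p = 0.024), but that call was lost in 5 of 10 fits that left out 1 lamb, those without cortisol 1, 2, 3 or 4 or control 2 (adjusted p up to 0.078). The second probe gave -1.14 ± 0.11 (adjusted p = 0.00034). Background correction by normexp, a model of signal plus noise, was run with an offset of 50 units added to each spot. It left -1.01 ± 0.19 and ended the call (adjusted p = 0.105 with lamb as a block). An added constant shrinks log2 differences, most for dim spots, and its part in the normexp values here and below was not tested. In bulk tissue, fewer cells of a type and less RNA per cell cannot be told apart.

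Slide was largely tied to region. Of the 4 slides, slide 1 held 6 septum arrays, slide 3 held 6 LV arrays, slide 4 held 1 LV array, that of lamb cortisol 4, and slide 2 held 4 septum and 3 LV arrays. Both arrays of 3 lambs lay on slide 2. In these lambs, septum minus LV of CPT1A was -0.44 in cortisol 5, -0.91 in control 3 and -0.96 in control 5. In the other 7 lambs, with septum and LV on different slides, the mean was -1.32 ± 0.38 (SD). The sign was thus the same within 1 slide, with a smaller mean of -0.77 ± 0.29 (SD, n = 3 lambs), and with lamb as a block over these 3 lambs the value of -0.69 ± 0.12 (SE) did not pass (adjusted p = 0.301). With slide as a block and lambs not matched, the difference was -0.30 ± 0.59 (SE), and slide 2 alone without matching gave -0.25 ± 0.58. The unmatched slide 2 value sets arrays of partly different lambs against each other, since the septum of lamb cortisol 4 is there without its LV.

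CPT1B showed no such difference between regions. In septum cortisol it stood at 2.69, 3.11, 3.57, 3.47 and 3.32, and in septum control at 3.49, 3.57, 3.52, 3.55 and 3.35. In LV cortisol it stood at 2.71, 2.86, 3.08, 3.41 and 3.23, and in LV control at 3.50, 3.28, 3.32, 3.75 and 3.33. Means were 3.23 ± 0.35 in septum cortisol, 3.50 ± 0.09 in septum control, 3.06 ± 0.28 in LV cortisol and 3.44 ± 0.19 in LV control (SD, n = 5 lambs each), and neighbours in order of level differed by less than the larger of their SDs. The septum was higher in 7 of 10 lambs, and septum minus LV was 0.12 ± 0.19 (SD, n = 10 lambs; range -0.20 to 0.49). With lamb as a block the 95% interval was -0.04 to 0.27 (adjusted p = 0.267), so a regional difference of the size seen for CPT1A lay outside it. The second probe gave 0.02 ± 0.07 (SE), and normexp gave the other sign, -0.08 ± 0.25.

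**Figure D2:**
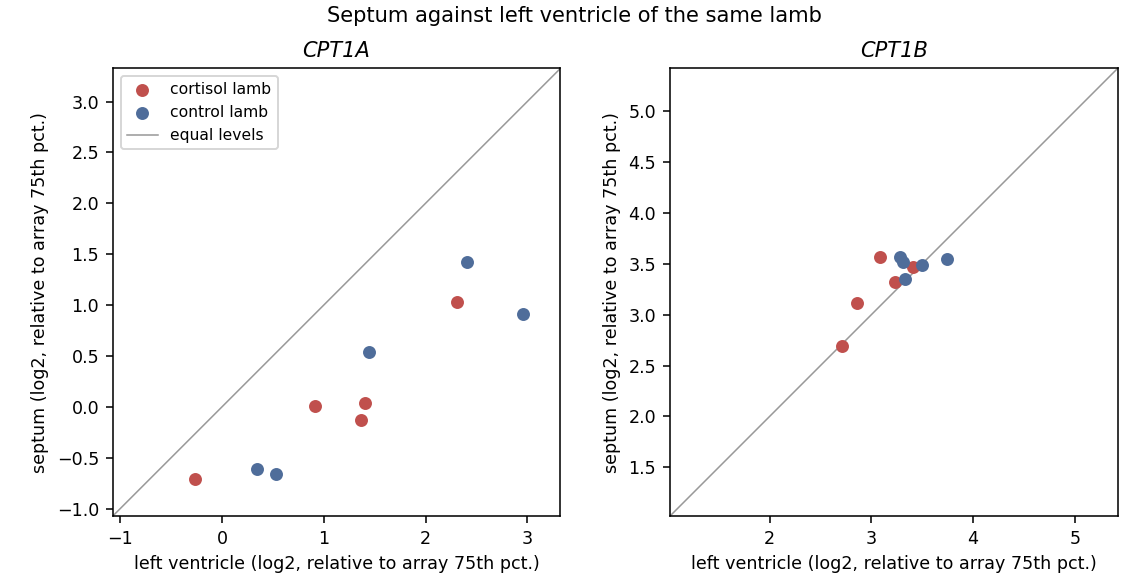
Septum signal (vertical) against LV signal (horizontal) of the same lamb for CPT1A and CPT1B, in log2 units relative to the array's 75th percentile; the grey line marks equal signal and each point is 1 lamb. All 10 lambs lie below the line for CPT1A, and for CPT1B 7 lie above it and 3 below.

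The contrast of the 2 CPT1 genes was tested as the CPT1A minus CPT1B difference within each array, whose absolute value depends on the probes and is not read here. Septum minus LV of this difference was -1.27 ± 0.46 (SD, n = 10 lambs) and negative in 10 of 10, from -1.99 to -0.53. An exact two-sided sign-flip test over lambs gave p = 0.00195, the smallest it can give for 10 lambs. It gives this p whenever all 10 lambs share a sign, as they did for CPT1A alone. Of single probes, 3.35% were lower and 3.61% higher in septum in 10 of 10 lambs. Within the 3 lambs on slide 2 the mean of CPT1A minus CPT1B, septum minus LV, was -0.87 (exact p = 0.25, the smallest for 3 lambs). The shift was -1.27 ± 0.58 in cortisol lambs and -1.28 ± 0.38 in control lambs (SD, n = 5 each), a difference of 0.01 (exact two-sided permutation p = 0.984). The cortisol comparison of the same quantity gave differences near 0 in both regions. CPT1A minus CPT1B was -3.19 ± 0.67 in septum cortisol and -3.18 ± 0.90 in septum control, and -1.92 ± 0.93 in LV cortisol and -1.90 ± 0.97 in LV control (SD, n = 5 lambs each). Exact two-sided permutation p-values were 1 in septum, 0.992 in LV and 0.976 for lamb means (each 1 after adjustment over the 3, with 0.00794 the smallest p possible). The differences behind them were -0.01, -0.02 and -0.01. Leaving out 1 lamb moved them to between -0.27 and 0.27 in septum and between -0.29 and 0.38 in LV.

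SLC25A20, the carnitine carrier, was slightly higher in the septum in every lamb. In septum cortisol it had -2.58, -2.67, -3.0, -1.03 and -2.10, and in septum control -1.59, -2.49, -1.87, -1.43 and -2.45. In LV cortisol it had -3.06, -2.88, -3.13, -1.06 and -2.52, and in LV control -1.92, -2.63, -2.53, -1.62 and -2.52. Means were -2.28 ± 0.77 in septum cortisol, -1.97 ± 0.49 in septum control, -2.53 ± 0.85 in LV cortisol and -2.24 ± 0.45 in LV control (SD, n = 5 lambs each). Lamb cortisol 4 was the highest lamb in both regions, and its LV array lay alone on slide 4 while its septum array lay on slide 2. Septum minus LV was 0.26 ± 0.20 (SD), positive in 10 of 10 lambs, from 0.03 to 0.66, or 1.20 times the LV signal. It did not pass without the lamb block (adjusted p = 0.777) and passed with it (0.26 ± 0.07 SE; adjusted p = 0.034). That call was lost in 7 of 10 fits that left out 1 lamb, those without control 1, 2, 3 or 4 or cortisol 1, 2 or 5 (adjusted p 0.0291 to 0.0762 over the 10), and with normexp (0.11 ± 0.18). The 3 lambs on slide 2 gave 0.38 ± 0.30 (SD), all positive.

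PLIN5, the droplet coat protein, was also higher in the septum, in 9 of 10 lambs. In septum cortisol the values were -1.98, -1.75, -1.47, -0.75 and -1.68, and in septum control -1.29, -1.33, -1.48, -1.12 and -1.62. In LV cortisol they were -2.91, -1.98, -1.88, -0.55 and -2.25, and in LV control -1.59, -1.80, -2.08, -1.45 and -1.97. Means were -1.52 ± 0.47 in septum cortisol, -1.37 ± 0.19 in septum control, -1.92 ± 0.86 in LV cortisol and -1.78 ± 0.26 in LV control (SD, n = 5 lambs each). Lamb cortisol 4 was again the highest in both regions and was the lamb with the lower septum, with septum minus LV at -0.20. Septum minus LV was 0.40 ± 0.29 (SD, n = 10), a ratio of 1.32. Without the lamb block it had an adjusted p of 0.491, and with it 0.40 ± 0.10 (SE) and an adjusted p of 0.018, whereas neither cortisol lambs alone (adjusted p = 0.169) nor control lambs alone (adjusted p = 0.0896) passed. The second probe gave 0.40 ± 0.10 (adjusted p = 0.024), normexp gave 0.19 ± 0.15 and ended the call, and the 3 lambs on slide 2 gave 0.51 ± 0.13 (SD).

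LIPA, the lysosomal acid lipase, was higher in the septum in 10 of 10 lambs. In septum cortisol it had -0.93, -1.21, -1.21, -1.89 and -1.95, and in septum control -1.36, -1.46, -2.0, -1.79 and -2.08. In LV cortisol it had -1.46, -1.83, -1.84, -2.22 and -2.46, and in LV control -1.63, -1.75, -2.40, -2.42 and -2.12. Means were -1.44 ± 0.46 in septum cortisol, -1.74 ± 0.32 in septum control, -1.96 ± 0.39 in LV cortisol and -2.06 ± 0.36 in LV control (SD, n = 5 lambs each). For SLC25A20, PLIN5 and LIPA too, neighbouring means differed by less than the larger of their SDs. The shift was present in every lamb but was not larger than the range of the lambs in a region, so the groups overlapped. Septum minus LV was 0.43 ± 0.19 (SD), from 0.04 to 0.63, with a ratio of 1.34. It passed with lamb as a block (0.43 ± 0.07 SE; adjusted p = 0.0029), not without it (adjusted p = 0.283). Cortisol lambs alone passed (0.52 ± 0.09; adjusted p = 0.031) and control lambs alone did not (0.33 ± 0.09; adjusted p = 0.058). The call in cortisol lambs was lost in 6 of 10 fits that left out 1 lamb, those without cortisol 1, 2 or 3 or control 1, 2 or 3 (adjusted p up to 0.084). The test of the difference between these groups did not pass (0.20 ± 0.13; adjusted p = 0.997). Normexp gave 0.22 ± 0.18, which did not pass, and the 3 lambs on slide 2 gave 0.31 ± 0.25 (SD), all positive.

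FABP4 was near background on many arrays. In septum cortisol it had -3.44, -2.50, -6.81, -6.87 and -7.03, of which the first 2 were well above background. In septum control it had -6.15, -7.85, -4.20, -3.67 and -6.38, with lambs 3 and 4 well above background. In LV cortisol it had -3.77, 0.55, 0.01, -5.71 and -4.96, with lambs 2, 3 and 5 well above background. In LV control it had -2.70, -5.81, -2.71, -1.71 and -5.23, with lambs 1, 3 and 4 well above background. A value that was not above background is only an upper limit. The gene was well above background in both regions of 3 lambs, cortisol 2, control 3 and control 4, and in these the septum had the lower value. It was so in LV alone in 3 lambs, in septum alone in 1, and in neither region in 3, cortisol 4, control 2 and control 5. It met the minimum of 10 of 20 arrays with 6 LV and 4 septum arrays, so no regional difference is read from its fitted value. Of the endothelial markers, KDR was lower in the septum (-0.73 ± 0.11, adjusted p = 0.0021 with lamb as a block), while PECAM1 was at 0.12, FLT1 at -0.08 and TIE1 at 0.06. The summed adipocyte signal (4 of 9 markers named) ran from 8.22 to 32.8 times the array percentile in septum cortisol, against 7.52 to 39.0 in LV cortisol, and from 9.49 to 16.7 in septum control, against 11.7 to 21.8 in LV control. This sum mostly gives LPL, whose group means were 3.65 to 4.08 on the log2 scale. Those of PPARG were -0.17 to 0.35 and those of PLIN1 -2.33 to -2.01, and LEP was well above background on 12 of 20 arrays. Of these markers LEP was at -0.39, PLIN1 at -0.24, PPARG at -0.33 and LPL at -0.18, and none of these 4 passed. Of the macrophage and monocyte list, 4 of 10 markers were named and 3 detected, with CD14 at -0.28, LYZ at -0.03 and CD86 at 0.14, and none passed. Their summed signal ran from 0.227 to 0.588 in septum cortisol, against 0.248 to 0.762 in LV cortisol, and from 0.197 to 0.496 in septum control, against 0.189 to 0.644 in LV control. The part of these cell types in the FABP4 values was not tested.

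**Figure D3:**
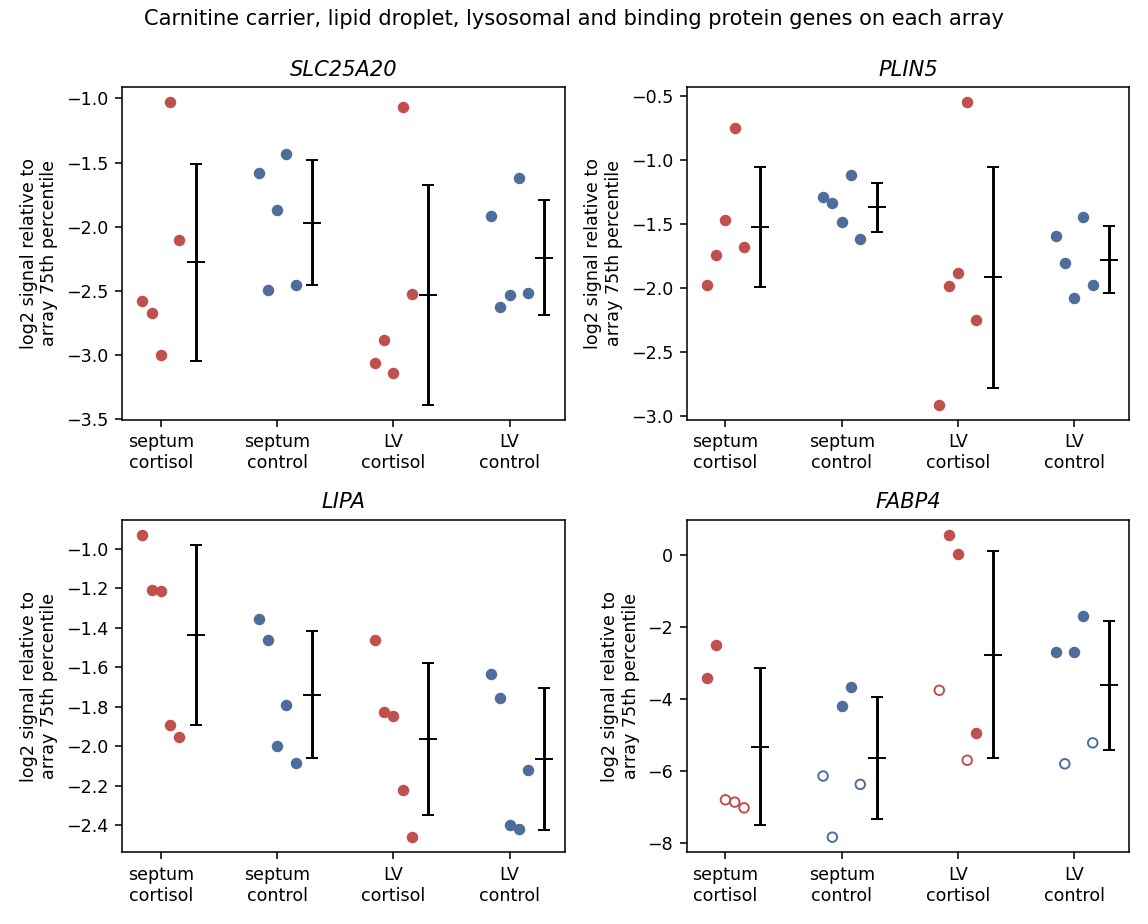
Signal of SLC25A20, PLIN5, LIPA and FABP4 on each array, in log2 units relative to the array's 75th percentile (vertical scales differ); filled points were well above background, open points were not, and bars are mean ± SD (n = 5 lambs). FABP4 has open points in every group, and lamb cortisol 4 is the highest LV and septum point of its group for SLC25A20 and PLIN5.

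Of the 5 members measured on every array, 4 differed between septum and LV with lamb as a block, CPT1A lower and SLC25A20, PLIN5 and LIPA higher, and FABP4 is left out of these counts. In that model 17.6% of 10069 probes passed, 7.45% higher and 10.1% lower in septum, so passing was common on these arrays. Without the block 0 of 5 passed, and 0.546% of probes did, 0.0397% higher and 0.507% lower. The median difference of the 5 was 0.26, against 0.01 for all probes. A sign shared by 10 of 10 lambs was found for 3.35% of probes lower and 3.61% higher in septum, and among the members for CPT1A (lower), SLC25A20 and LIPA (higher). A sign shared by at least 9 of 10 was found for 12.1% lower and 11.5% higher, and so for PLIN5 (higher) too. In cortisol lambs alone with the block 2 of 5 passed, CPT1A lower and LIPA higher, beside 1.26% of probes (0.377% higher and 0.884% lower). In control lambs alone it was 1 of 5, CPT1A lower, beside 7.86% of probes (2% higher and 5.86% lower). Without the block no member passed in cortisol lambs alone (0% of probes) or in control lambs alone (0.0397%, all lower). CPT1A kept its adjusted p under 0.05 in 10 of 10 fits that left out 1 lamb (0.000266 to 0.00281), as did LIPA (0.00337 to 0.0106) and PLIN5 (0.00536 to 0.0473). SLC25A20 kept it in 3 of 10. Normexp with the lamb block ended all 4 calls, and 8 of 10069 probes passed there. Slide was largely tied to region, and 0 probes passed with slide as a block or in the 3 lambs on slide 2.

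**Figure D4:**
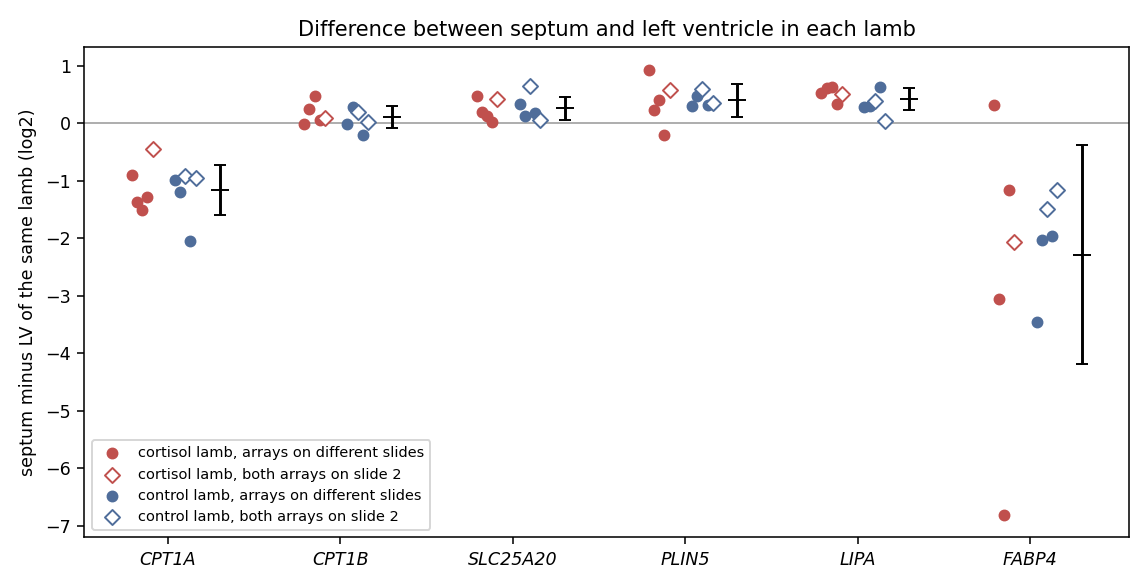
Septum minus LV of each lamb on the log2 scale for the 6 genes; circles are lambs with arrays on different slides, open diamonds are the 3 lambs with both arrays on slide 2, and bars are mean ± SD over 10 lambs. CPT1A is below 0 and LIPA and SLC25A20 are above 0 in all 10 lambs, and FABP4, whose points include values not above background, spreads from -6.82 to 0.33.

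Markers of other cell types were compared between regions in the same way. COL1A2 and COL3A1, fibrillar collagens made by fibroblasts, were lower in the septum at -1.12 ± 0.13 and -1.06 ± 0.11 on the log2 scale (SE; adjusted p = 0.00082 and 0.00048 with lamb as a block), whereas DCN, decorin, the other named fibroblast marker of 3 of 7, was at -0.04 ± 0.07. The summed linear signal of these 3 genes ran from 31.6 to 70.4 times the array percentile in septum cortisol, against 28.6 to 84.7 in LV cortisol, and from 30.2 to 50.6 in septum control, against 32.2 to 54.5 in LV control. The summed endothelial signal (5 of 11 markers named) ran from 9.94 to 24.5 in septum cortisol, against 7.08 to 23.1 in LV cortisol, and from 12.9 to 15.2 in septum control, against 13.2 to 16 in LV control. A linear sum mostly follows its brightest genes, and the fibroblast sums overlapped between regions although both collagens were lower in septum. Overlap of these sums therefore does not show equal amounts of a cell type. MB, myoglobin, was the only cardiomyocyte marker of 15 that could be named and was well above background on all 16 arrays where its spot was kept, with septum minus LV at -0.09 ± 0.08 with lamb as a block. TNNC2, the fast skeletal muscle form of troponin C, had a difference of 0.21 ± 0.24. The part of cell composition in the CPT1A difference was not tested.

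Maternal cortisol was the other comparison, and asks whether the newborn heart's fatty acid genes differ after raised cortisol before birth. No member passed in either region. In the septum the cortisol minus control difference was -0.27 ± 0.44 for CPT1A, -0.26 ± 0.18 for CPT1B, -0.31 ± 0.37 for SLC25A20, -0.16 ± 0.23 for PLIN5 and 0.30 ± 0.24 for LIPA (log2, SE, n = 5 lambs per group). FABP4 was not tested there, as it was well above background on 4 of 10 septum arrays. In LV it was -0.39 ± 0.57 for CPT1A, -0.38 ± 0.18 for CPT1B, -0.29 ± 0.39 for SLC25A20, -0.14 ± 0.36 for PLIN5, 0.10 ± 0.24 for LIPA and 0.85 ± 1.28 for FABP4, which was well above background on 6 of 10 LV arrays. Adjusted p-values were 0.818 to 0.882 in septum and 0.879 to 0.961 in LV. The carnitine shuttle genes and PLIN5 were thus negative and LIPA positive in both regions, within the spread between lambs. Only CPT1B kept its sign in both regions under its 22 alternatives: normexp turned SLC25A20 in both regions and PLIN5 in LV, leaving out cortisol 1 turned PLIN5 and LIPA in LV (0.11 and -0.02), and leaving out control 1 turned CPT1A in septum (0.01). Slide 2 alone turned CPT1A, SLC25A20 and PLIN5 in septum. In LV it holds 1 cortisol array, and its signs are not read. Cortisol and control lambs overlapped for every member in both regions, as they did for all but 0.386% of probes in septum and 0.766% in LV.

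CPT1B had the narrowest intervals. Its 95% interval was -0.66 to 0.14 in septum and -0.78 to 0.03 in LV, so a rise of more than 0.14 in septum or 0.03 in LV lay outside it. All 5 LV cortisol arrays were below the control mean and 4 of 5 were below every LV control array. In septum 4 of 5 cortisol arrays were below the control mean and 3 of 5 below every control array. Across 22 alternatives in each region the sign stayed negative, from -0.41 to -0.04 in septum and -0.62 to -0.09 in LV, with slide 2 alone nearest to 0 in each (1 cortisol array in LV). The second CPT1B probe gave -0.23 ± 0.19 in septum and -0.32 ± 0.18 in LV, and 0.03 ± 0.21 in septum on slide 2 alone. For CPT1A the interval was -1.24 to 0.70 in septum and -1.65 to 0.86 in LV, so a difference of -1 log2 unit lay inside it in both.

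**Figure D5:**
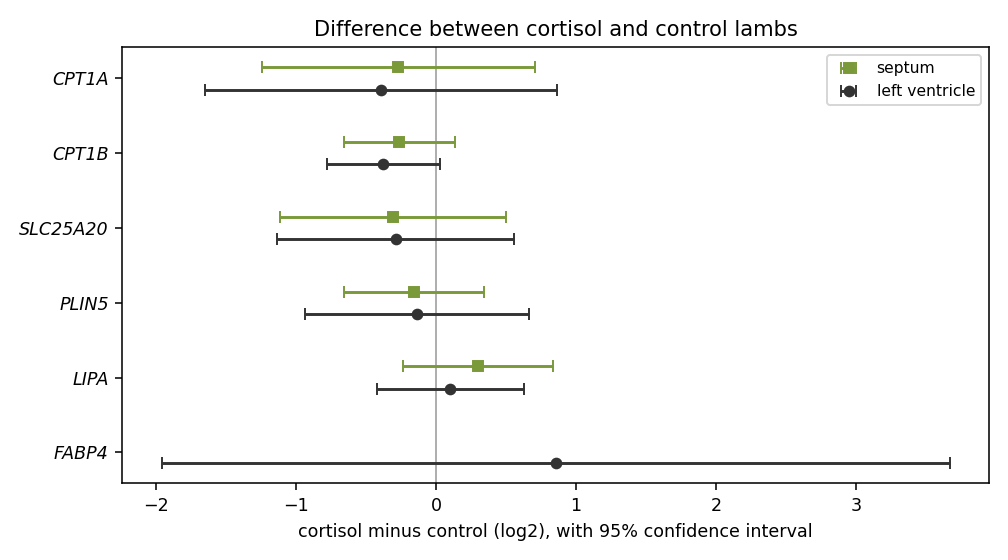
Cortisol minus control on the log2 scale (horizontal) for each gene in septum (squares) and in LV (circles), with 95% confidence intervals from the limma fit of each region; FABP4 was not tested in septum. All intervals include 0, that of CPT1B in LV reaching 0.03.

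The cortisol comparison was also made within single slides. On slide 1 alone (3 cortisol and 3 control arrays) the septum values were -0.58 ± 0.51 for CPT1A, -0.41 ± 0.27 for CPT1B, -0.91 ± 0.32 for SLC25A20, -0.48 ± 0.22 for PLIN5 and 0.42 ± 0.22 for LIPA (SE). On slide 2 alone (2 and 2 arrays) they were 0.20 ± 0.71, -0.04 ± 0.22, 0.60 ± 0.45, 0.33 ± 0.37 and 0.12 ± 0.21 in the same order. On slide 3 alone (3 and 3 arrays) the LV values were -0.73 ± 0.59, -0.62 ± 0.22, -0.97 ± 0.29, -0.64 ± 0.31 and 0.22 ± 0.27 in that order, and 2.34 ± 1.39 for FABP4. On slide 2 alone (1 cortisol and 2 control arrays) they were -1.17, -0.09, 0.0045, -0.23 and -0.20, and -0.99 for FABP4, each the value of that lone cortisol array against 2 control arrays. With limma 0 of 10369 probes passed in septum on slide 1 alone, 0 of 10369 on slide 2 alone and 0 of 9770 in LV on slide 3 alone. At an unadjusted p under 0.05 were 1721, 318 and 1120 probes in that order, so such values were common on slides 1 and 3. In septum SLC25A20 and PLIN5 were negative on slide 1 and positive on slide 2, and this difference was not tested. Slides 1 and 2 hold septum arrays of different lambs, so slide and lamb cannot be told apart there. The septum arrays on slide 1 and the LV arrays on slide 3 are of the same 6 lambs, so their values are not separate sets of lambs. Without lamb cortisol 4, the high lamb on slides 2 and 4, SLC25A20 was at -0.62 in septum and -0.66 in LV, and PLIN5 at -0.35 and -0.48.

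Over all genes, 0 of 10369 probes passed for cortisol in septum and 0 of 9787 in LV with limma (0% each), with 384 and 505 at an unadjusted p under 0.05. The members' median difference was -0.26 over 5 members in septum and -0.21 over 6 in LV, against 0.03 and -0.01 for all probes. The LV median includes FABP4, which was not tested in septum, so the 2 medians cover unlike sets. Both come from the same 10 lambs and are not separate observations, and the members were not tested as a set. Averaged over both regions of each lamb, 0 of 6 members passed (0% of 10069 probes, 530 unadjusted), with -0.33 ± 0.49 for CPT1A and -0.32 ± 0.17 for CPT1B. Of the marker genes, TNNC2 had 1.91 ± 0.60 in septum and 2.13 ± 0.73 in LV for cortisol minus control, and the endothelial receptor TIE1 had -0.69 ± 0.36 and -0.67 ± 0.28 (adjusted p = 0.818 and 0.879 for each gene). The other endothelial markers tested did not share this: KDR was at -0.08 in septum and -0.13 in LV. PECAM1 was at 0.13 and -0.13 and FLT1 at 0.05 and 0.07, and none of these passed. The part of these markers in the members' values was not tested. The cortisol effect in septum minus that in LV passed for 0 of 6 members with or without the lamb block (0% of 10069 probes each, 38 unadjusted without it). With the block it was 0.12 ± 0.26 for CPT1A and 0.11 ± 0.14 for CPT1B (SE).

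The members differed in how far lambs of 1 group spread. The pooled SD within the 4 groups was 0.93 for CPT1A, and 93.2% of tested probes had a smaller one. It was 0.25 for CPT1B, with 13.2% of probes smaller, 0.66 for SLC25A20, 0.52 for PLIN5, 0.38 for LIPA and 0.42 for the median probe. FABP4 had 2.19, with background values in it. The lamb means of CPT1A spanned 2.42 log2 units, those of SLC25A20 2.02, of PLIN5 1.79, of LIPA 1.01 and of CPT1B 0.94. The second CPT1A probe was printed in 5 spots per array, which differed by an SD of 0.031 to 0.151 within an array. The part of time after birth in this spread was not tested, as no time is given per lamb.

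Pairs of members were compared over the 10 lamb means, 15 pairs in all, with permutation p-values adjusted over the 15. CPT1B and PLIN5 ranked the lambs alike (Spearman rho 0.92, permutation p = 0.00057, adjusted p = 0.00855), while Pearson's r was 0.73 (permutation p = 0.0207, adjusted p = 0.141) and 0.54 without the 2 lambs farthest from the CPT1B median or 0.79 without those farthest from the PLIN5 median. Over the 6 lambs with septum on slide 1 and LV on slide 3, r was 0.98. SLC25A20 and PLIN5 had r of 0.81 (permutation p = 0.00373, adjusted p = 0.0559) and rho of 0.66 (adjusted p = 0.134), with 0.43 without the 2 lambs farthest for SLC25A20, 0.62 without those farthest for PLIN5 and 0.67 over the same 6. CPT1A and SLC25A20 had r of 0.68 and rho of 0.58 (adjusted permutation p = 0.141 and 0.218), 0.53 without the 2 farthest for CPT1A, 0.42 without those for SLC25A20 and 0.84 over the 6. CPT1A and CPT1B had r of 0.41 and rho of 0.66 (adjusted permutation p = 0.451 and 0.134), and r was 0.07 without the 2 farthest for CPT1A, 0.80 without those for CPT1B and 0.52 over the 6, so it turned on which lambs were left out. LIPA and CPT1B had r of -0.61 and rho of -0.25 (adjusted permutation p = 0.141 and 0.731), with r of 0.03 without the 2 farthest for CPT1B, -0.43 without those for LIPA and -0.80 over the 6. All pairs come from the same arrays and share their scaling.

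Among 537 other named genes, the patterns over the 10 lamb means among the 3 most like that of CPT1A included those of CNN1, a smooth muscle calponin (r = 0.81), and of DKC1, dyskerin of small nucleolar RNPs (r = 0.80). For CPT1B the 3 were IRF3, an interferon regulatory factor (r = 0.80), TRIP4, a transcription coactivator (r = 0.79), and GGCX, a vitamin K-dependent carboxylase (r = 0.76, with a rho of 0.19). For SLC25A20 they included INHA, inhibin alpha (r = 0.91), and ARFIP2, a membrane-binding protein (r = 0.88). For PLIN5 they included MADCAM1, an endothelial adhesion molecule (r = 0.84), and PPIE, a peptidyl-prolyl isomerase (r = 0.82). These are among the highest of 537 values over 10 lambs and are given as a description.

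The rest of the pathway was thinly covered by named probes. Of 161 genes listed for uptake, the carnitine shuttle, mitochondrial oxidation, storage and regulation, 23 could be named and 17 were detected on enough arrays to test. For cortisol 0 of 17 passed in septum and 0 of 17 in LV, with 15 and 13 positive. Medians were 0.17 and 0.20, against 0.03 and -0.01 for all probes. Both regions come from the same 10 lambs, and the share of all probes with each sign is not given here, so the sign counts have no background. For septum against LV with lamb as a block 2 of 17 passed, both lower in septum, beside 17.6% of all probes (10.1% lower), so the count does not stand above the background. These were ACLY, which makes cytosolic acetyl-CoA for fatty acid synthesis (-0.53 ± 0.08, adjusted p = 0.0025), and ABHD5, the coactivator of the triglyceride lipase PNPLA2 (-0.33 ± 0.10, adjusted p = 0.048). Of the 17, 12 were negative and the median was -0.09, against 0.01 for all probes. Without the block, 0 of 17 passed.

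In uptake and binding, 4 of 31 genes were named and 3 tested. Cortisol minus control was 0.26 ± 0.48 in septum and 0.37 ± 0.53 in LV for FABP5, a fatty acid-binding protein. It was 0.26 ± 0.34 and 0.25 ± 0.38 for LPL, the lipoprotein lipase of the capillary wall, and 0.30 ± 0.34 and 0.20 ± 0.34 for CAV1, the caveolar coat protein. Between regions LPL was at -0.18 ± 0.07 with lamb as a block (adjusted p = 0.106), CAV1 at 0.19 ± 0.15 and FABP5 at 0.09 ± 0.09. A further LPL probe gave the other sign, 0.23 ± 0.09. For the carnitine shuttle and its inhibitor malonyl-CoA, 1 of 12 other genes was named, the acetyl-CoA carboxylase ACACA, well above background on 2 of 20 arrays. For mitochondrial oxidation and ketone use it was 1 of 46, the uncoupling protein UCP3, on 1 of 20. Neither was tested, so the enzymes of beta-oxidation are not described here.

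In storage, droplets and lysosomal lipid, 9 of 34 genes were named and 7 tested, with 2 lower and 0 higher in septum (lamb block), beside 10.1% and 7.45% of all probes. NPC2, which carries cholesterol out of lysosomes, was at 0.08 ± 0.08 and PLIN2, the widespread droplet coat protein, at 0.03 ± 0.15 between regions. For cortisol, ACLY was at 0.22 ± 0.18 in septum and 0.25 ± 0.21 in LV. SCD, the stearoyl-CoA desaturase, was at 0.23 ± 0.36 in LV and the droplet protein PLIN1 at 0.14 ± 0.23 in septum. DGAT1, which makes triglyceride, was at -0.18 ± 0.22 in septum and -0.07 ± 0.22 in LV, and NPC2 at -0.0021 ± 0.14 and -0.17 ± 0.21. FASN, fatty acid synthase, and PLIN3 were well above background on 3 and 0 of 20 arrays.

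Of the regulators, 8 of 38 were named and 7 tested, and none passed. HIF1A, the hypoxia-inducible factor, had the largest cortisol differences of these, 0.79 ± 0.40 in septum and 0.87 ± 0.47 in LV (adjusted p = 0.818 and 0.879), and PRKAA2, a catalytic subunit of AMP-activated kinase, had 0.43 ± 0.38 and 0.34 ± 0.43. PPARA, a nuclear receptor for fatty acids that drives CPT1 genes, was at -0.02 ± 0.26 in LV, and PPARGC1A, the coactivator of mitochondrial genes, at -0.06 ± 0.87. Between regions PPARGC1A was at -0.36 ± 0.15, PPARG at -0.33 ± 0.15 and PPARA at 0.04 ± 0.08 with lamb as a block (adjusted p = 0.11, 0.152 and 0.719).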

How the data were processed

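The 20 one-colour Agilent arrays of newborn lamb septum and LV came from 100 ng RNA labelled with Cy3, per the labels. Processed spot intensity is background-subtracted and detrended by Agilent's Feature Extraction (10.1.1.1 in the submitters' processing notes), per the file headers. The authors' deposited value table holds log2 values normalized for each region apart. It served only as an alternative for cortisol, and the notes name limma with no version.

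Each value is log2 of the processed intensity less the 75th percentile of its array, which was 98.4 to 440 units. It ran from 98.4 to 400 in LV and from 155 to 440 in septum. In LV cortisol lambs 1, 2 and 3 had 98.4, 108 and 98.7 units and lamb 4 had 400. The part of array intensity in the differences was not tested. Of all spots 57.9% to 72.1% were well above background, and outlier spots (2 to 68 per array) were removed. Precision is limited by the number of arrays. Names were found for 1399 of 15008 probes, through RefSeq accession (727), symbol (497), gene identifier (139), synonym (20) or description (16). The files name no genome build, so no coordinates are given. Tests cover probes well above background on 5 or more of 10 arrays of a region, or 10 or more of 20. They were two-sided, used limma 3.58.1 (R 4.3.3), adjusted p over all probes tested by Benjamini-Hochberg and called those under 0.05. Fits without a lamb block were tried on simulated arrays drawn independently of each other. The fit with lamb as a block was not tried on simulated data. Permutation tests (exact, or 100000 resamples for correlations) used scipy 1.17.1, and figures matplotlib 3.10.9.

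Septum and LV arrays of the same treatment and number were taken as 1 lamb: their deviations from group means correlated at 0.447 to 0.813 over probes, highest with the own partner in 10 of 10. Cortisol and control arrays of the same number were not treated as paired. P-values of tests within a single region or over lamb means measure the spread between these lambs. Those with lamb as a block, and that of the sign-flip test, measure how septum minus LV varies from lamb to lamb. The regional fits without the block treat the septum and LV arrays of a lamb as independent.

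The members and lists were chosen with earlier results of these data known. Named genes were all members, from each list the 2 with the smallest p in each direction (all where 4 or fewer were named), and the 3 most alike in pattern. Alternatives were background correction (normexp with an offset of 50 units), scaling, filters, slide, lamb or replicate number as a block, leave-outs, second probes and the deposited values. The fits that combine the lamb block with another choice were chosen after seeing the data. Values of some genes that these rules name are not reported here.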

Additional observations from a re-analysis of the deposited data

Results flagged for a closer look

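By the leading probe, lamb control 4 stood apart from the other 4 control lambs in the difference between septum and LV of CPT1A. Its septum minus LV was -2.05 on the log2 scale, and the others lay between -1.19 and -0.91. The gap to the nearest lamb was 0.754 of the whole range of the 5 lambs, above the critical value of 0.71. Its LV array had the highest CPT1A value of all 20, 2.96. The second CPT1A probe gave -1.92 in this lamb and -1.25 to -0.92 in the others, where the gap relative to the range was below the critical value. Without this lamb, with lamb as a block, CPT1A was still lower in septum over both treatments (-1.05, with an adjusted p of at most 0.00281 over the leave-outs). In all, 36 groups of 5 values were examined and 1 was flagged, and chance flags about 1 in 20.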

How the results depend on the processing

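Of 1119 values of single members under alternatives, 977 kept their sign and their side of the threshold, 91 passed where the fit without a lamb block had not, and 51 changed sign. FABP4, well above background on 10 of 20 arrays, is among them, and no regional call is read from it. With normexp background, cortisol minus control turned to 0.085 in LV, 0.096 in septum and 0.091 on average for SLC25A20 and to 0.088 in LV and 0.043 on average for PLIN5. With normexp and with or without lamb as a block, septum minus LV of CPT1B was -0.031 in cortisol lambs, -0.120 in control lambs and -0.076 on average, and the cortisol difference in septum minus that in LV was 0.011 for SLC25A20. The other CPT1B probe gave -0.031 in control lambs. On slide 2 alone (1 cortisol array in LV) the cortisol difference was 0.200 for CPT1A in septum, 0.0045 in LV and 0.597 in septum for SLC25A20, 0.334 for PLIN5 in septum, -0.995 for FABP4 in LV and -0.201 for LIPA in LV, and septum minus LV of CPT1A in cortisol lambs was 0.433. The cortisol difference in septum minus that in LV was 0.360 with slide as a block and 0.592 on slide 2 for SLC25A20, and 0.360 and 0.561 for PLIN5. In the 3 lambs on slide 2 with the lamb block it was -0.016 for CPT1B, 0.058 for SLC25A20 and 0.097 for PLIN5. Leaving out 1 lamb gave, for cortisol minus control, -0.516 to 0.0051 for CPT1A in septum, -0.478 to 0.114 for PLIN5 in LV and -0.413 to 0.036 on average, -0.184 to 1.14 for FABP4 on average and -0.023 to 0.227 for LIPA in LV. For the cortisol difference in septum minus that in LV it gave -0.086 to 0.223 for CPT1A, -0.077 to 0.075 for SLC25A20, -1.26 to 0.527 for FABP4 and -0.156 to 0.129 for PLIN5. The cause of these changes was not tested.

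CPT1A minus CPT1B, cortisol minus control, was 0.036 in LV, 0.262 in septum and 0.149 for lamb means with normexp. With other probe pairs it was 0.018 or 0.052 in septum and 0.011 for lamb means, and leaving out 1 lamb gave -0.288 to 0.380 in LV, -0.273 to 0.267 in septum and -0.252 to 0.291 for lamb means. Its septum minus LV value was -0.871 in the lambs on slide 2.

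The number of probes that differ between septum and LV depended on the lamb block. In cortisol lambs alone it was 0 without it, 127 with it, 117 with it and quantile normalization, 91 with it and median scaling, 2 with quantile normalization alone, 1 where all arrays had to be above background, and 0 to 541 over the leave-outs. In control lambs alone it was 4 without the block, 791 with it, 798 with quantile and 541 with median scaling added, and 1 with quantile normalization or no filter alone. It was 0 with normexp, with slide as a block, on slide 2 alone or in its 3 lambs, and 0 to 1191 over the leave-outs. On average over treatments it was 55 without the block, 1772 with it or with quantile added, 1470 with median scaling added, 118 with no filter, 1 with normexp and 8 with normexp and the block, 0 with slide as a block, on slide 2 alone or in its 3 lambs, and 5 to 2291 over the leave-outs. Without cortisol 5 and without the lamb block it was 313. Cortisol and control arrays of the same number deviated together at 0.0723 to 0.288 in LV and 0.0577 to 0.273 in septum, each array correlating best with its own number in 3 of 5 and 3 of 5, and with that number as a block 0 probes passed for cortisol. The number of arrays and, for FABP4, signal near background limit these values.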
